A study of Mus musculus with 2 samples.

Results

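The genes described here are 7 genes best known from muscle or from actin-based structures that gave reads in hormone-producing cells of the mouse pituitary: Tnnt1, Tnni3, Ttn, Neb, Nebl, Myo15 and Dmd, out of 32285 genes in the count tables. They were chosen by symbol because they stood out in endocrine cells of these same libraries, so their levels and their differences are given as a description, with no test. The study compared pituitary glands of male C57BL/6 mice at 2 months (young) and 20 months (old). At each age 10 glands were pooled into 1 library of dissociated single cells, so neither age has a replicate and the spread between animals was not measured. No allele, treatment or transgene is named for either group.

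In striated muscle, troponin T (Tnnt1 encodes the slow skeletal form) holds the troponin complex on tropomyosin, troponin I (Tnni3 encodes the cardiac form) blocks actin and myosin from meeting until calcium binds troponin C, titin (Ttn) spans the sarcomere as a spring, nebulin (Neb) runs along the thin filament and nebulette (Nebl) is its relative at the cardiac Z disc. Myo15 encodes an unconventional myosin that carries whirlin to the tips of the actin bundles of inner ear hair cells, and Dmd encodes dystrophin, which ties actin to a membrane complex. In the anterior pituitary, corticotrophs cut the Pomc product to corticotropin and melanotrophs of the intermediate lobe cut it to melanocyte-stimulating hormone, somatotrophs make growth hormone, lactotrophs prolactin and gonadotrophs the gonadotropins.

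Tnnt1 and Tnni3 are shown first by sequence, because they are neighbours and had the same carrier cells. In the RefSeq order of protein-coding genes 0 genes lie between them, and both are on the minus strand. RefSeq promoter entries of assembly GRCm38.p6 were found for 6 of the 7 genes (all but Neb), whereas the counts were made against GRCm39 per the submitters' processing notes, so these positions hold for GRCm38.p6 alone. The 250 bases before each start are printed 5′ to 3′ along the gene, with motif matches in capitals, for Tnnt1 at chr7:4515976-4516225 (minus strand) and for Tnni3 at chr7:4522529-4522778 (minus strand).
Tnnt1 promoter: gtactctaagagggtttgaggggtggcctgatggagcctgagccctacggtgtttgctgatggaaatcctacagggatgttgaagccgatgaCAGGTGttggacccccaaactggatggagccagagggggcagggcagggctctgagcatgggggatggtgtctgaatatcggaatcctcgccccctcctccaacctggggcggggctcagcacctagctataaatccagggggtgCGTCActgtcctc
Tnni3 promoter: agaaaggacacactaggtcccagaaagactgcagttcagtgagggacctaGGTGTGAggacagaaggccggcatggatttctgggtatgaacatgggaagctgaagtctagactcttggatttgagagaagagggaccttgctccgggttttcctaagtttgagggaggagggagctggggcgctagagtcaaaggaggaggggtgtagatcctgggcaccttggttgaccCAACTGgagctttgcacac
The letters searched on both strands were chosen after the values were seen. An E-box (CANNTG) was present at base −158 of Tnnt1 and base −19 of Tnni3, counted to the match's first base from the start, and 66.2% of 32851 promoters of the same length hold one. The core of a cyclic AMP response element (TGACG, read on the other strand) stood at base −13 of Tnnt1, as in 17.8% of promoters. The core of a T-box element (TCACACC, other strand), the kind of site bound by factors such as Tbx19, stood at base −200 of Tnni3, as in 3.33% of promoters. Neither window held the M-CAT letters CATTCC, which 12.6% of promoters hold. The GATA letters AGATAA (9.99% of promoters), a MEF2 site (2.92%) and a CArG box (1.47%) were not found in them either. A match is a run of letters and no measurement of binding.

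The young and old libraries held 154510099 and 138427393 UMIs (unique molecular identifiers, each counting 1 captured transcript). After the filters 8531 young and 9017 old barcodes were kept, of which 5540 old ones formed a cluster whose profile matched free RNA and entered no cell class, leaving 3477. The kept sets shared 26 barcode sequences, 15 of them outside free RNA. Clusters were named from marker genes and are called "-like": 1253 young and 306 old cells were corticotroph-like, 3973 and 1115 somatotroph-like, 401 and 282 lactotroph-like, 46 and 150 melanotroph-like and 62 and 38 gonadotroph-like. Median depth was 7110 and 8658 UMIs in corticotroph-like, 9697 and 6576 in somatotroph-like and 4556 and 6513 in melanotroph-like cells. Levels are CPM, a gene's UMIs scaled to all UMIs of the class, leaving hormone and mitochondrial genes out of the total. Ranges after a level, share or ratio are exact 95% intervals that cover counting error only, and levels of different genes are not compared. "Called" means at least 2-fold higher or lower with at least 20 UMIs over both libraries together, in a class of at least 50 cells in each.

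Each gene had the same carrier, the endocrine class with its highest CPM, at both ages. Tnnt1 and Tnni3 were carried by corticotroph-like cells, Ttn and Dmd by melanotroph-like cells, and Neb, Nebl and Myo15 by somatotroph-like cells. The carrier's interval stood apart from that of the next class in both libraries for all but Dmd in the young one, where melanotroph-like and gonadotroph-like intervals overlapped. The carriers held 93.4% of young and 79.0% of old endocrine UMIs of Tnnt1, 93.7% and 85.4% of Tnni3, 96.5% and 92.1% of Neb, 91.5% and 76.2% of Nebl and 94.96% and 82.4% of Myo15. For Ttn and Dmd the carrier was a small class, and held 28.8% and 62.9% of Ttn and 2.03% and 25.1% of Dmd. Of the young Dmd UMIs of endocrine cells, 71.7% came from the many somatotroph-like cells at a low level. With 1 library per age these shares also move with how many cells of each class were kept.

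**Figure D1:**
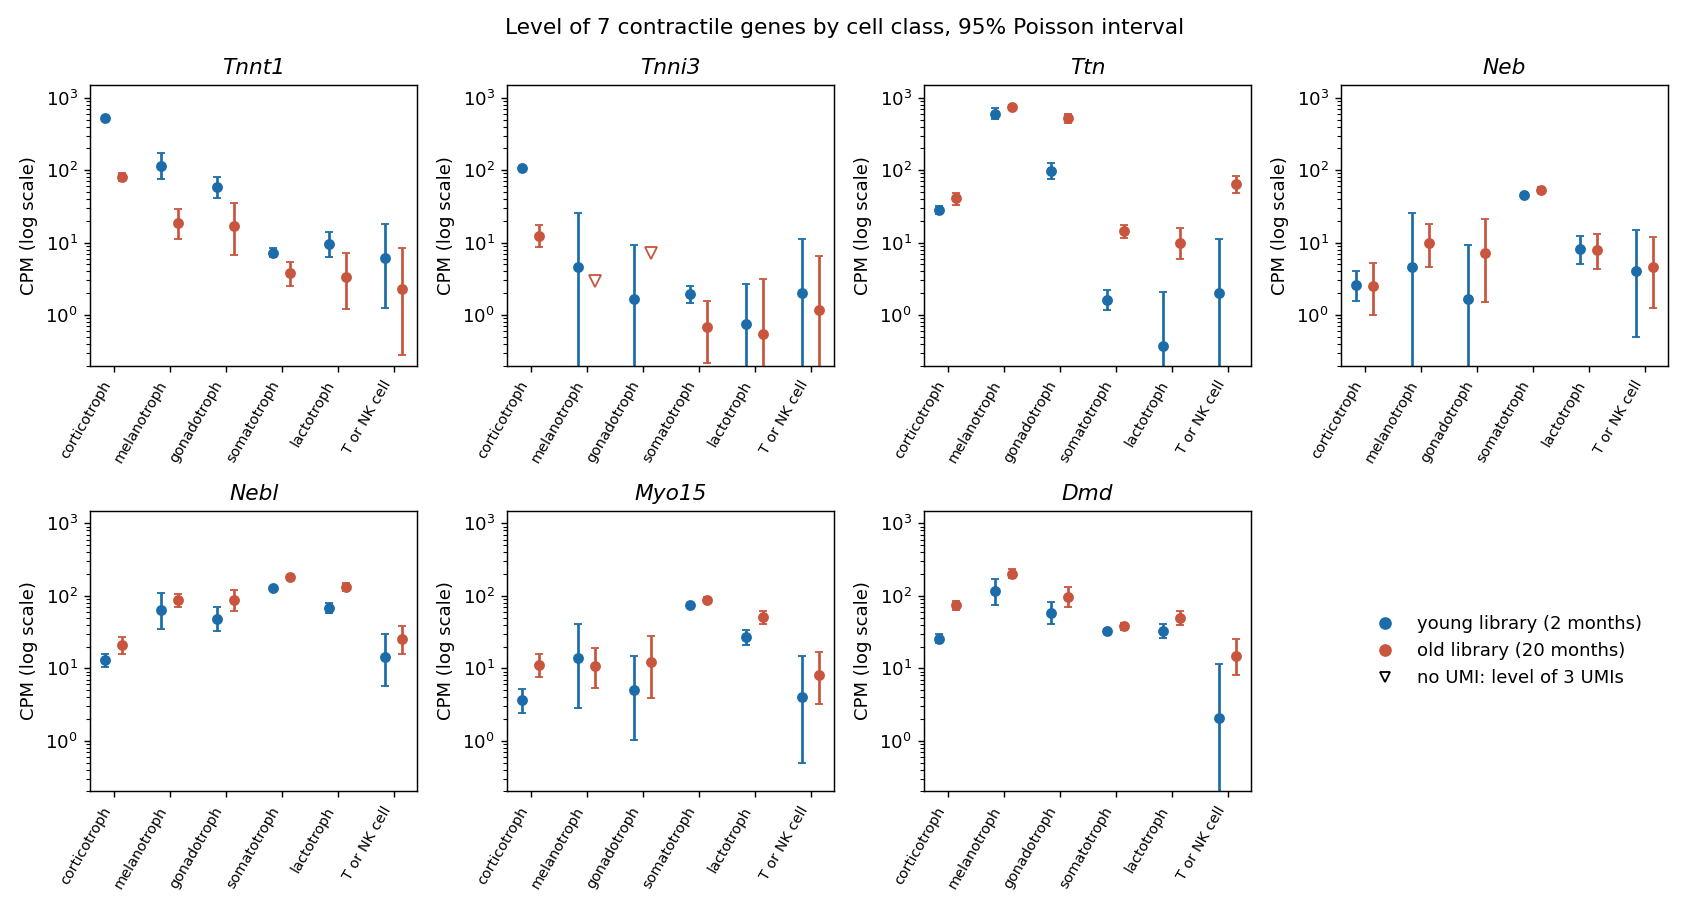
Level of each gene (CPM, log axis from 0.2) in 5 endocrine classes and in T or NK cell-like cells, young in blue and old in red, with exact 95% Poisson intervals (bars that reach the lower edge go on below it); open triangles mark the level of 3 UMIs where a class had none. Tnnt1 and Tnni3 peak in corticotroph-like, Ttn and Dmd in melanotroph-like and Neb, Nebl and Myo15 in somatotroph-like cells, and the troponins alone sit lower in the old carrier.

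Tnnt1 in corticotroph-like cells was at 520 CPM in the young library (4014 UMIs) and 80.6 CPM in the old one (226 UMIs). The old level was 6.45-fold lower (5.64 to 7.41). Of the 2 libraries the young one was the higher by far more than counting error, and with 1 library per age no replicate check is possible. The order of the other classes in the young library was melanotroph-like at 115 CPM, gonadotroph-like at 58.5, lactotroph-like at 9.67 and somatotroph-like at 7.28, of which the first pair and the last pair each had overlapping intervals. In the old library the same classes were at 18.5, 17.0, 3.34 and 3.78 CPM. The gonadotroph-like cluster was mixed, and it was split after the values were seen. Its cells with at least 10 UMIs of the gonadotropin genes Lhb and Fshb (20 young and 16 old) had 1 and 0 Tnnt1 UMIs. Cells with under 10 UMIs of these and of the thyrotropin gene Tshb (35 and 21) held 34 and 7. The gonadotroph-like level was therefore in cells with few gonadotropin UMIs. The young cell of this cluster with the most Tnnt1 (11 of 35 UMIs) had 1081 Pomc, 2 Tbx19 and 0 Lhb and Fshb UMIs. The old one (3 of 7) had 29 Pomc and 0 Tbx19 UMIs. T or NK cell-like cells, which should lack the gene, had 6.10 CPM (1.26 to 17.8) and 2.31 CPM (0.280 to 8.35), so the levels in lactotroph-like and somatotroph-like cells did not stand above theirs at this depth.

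Tnni3 kept to the same cells. Its level in corticotroph-like cells was 108 CPM in the young library (836 UMIs) and 12.5 CPM in the old one (35 UMIs), 8.67-fold lower (6.18 to 12.5). Melanotroph-like cells had 1 young UMI and 0 old ones, which allow up to 2.92 CPM by a floor of 3 counts. Gonadotroph-like cells had 1 and 0 UMIs and lactotroph-like cells 2 and 1. Somatotroph-like cells were at 1.93 and 0.675 CPM, at or under the 2.03 and 1.16 CPM of T or NK cell-like cells. Outside the endocrine classes it had 17 and 5 UMIs in macrophage-like cells (4.79 and 2.31 CPM), 17 and 3 in stem cell-like cells (2.33 and 1.24 CPM), and 4 young and 0 old UMIs each in B cell-like and erythroid-like cells.

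More cells carried the troponins in the young library. With every cell thinned to 2000 UMIs, a UMI of Tnnt1 was found in 38.2% (35.5 to 41.0%) of the corticotroph-like cells of the young library and 9.15% (6.17 to 12.95%) of those of the old one, against 1.71% and 0.645% of T or NK cell-like cells, whose median depth before thinning was 4364 and 5558 UMIs. For Tnni3 the shares were 10.9% and 2.61%, against 0.855% and 0% (0 of 155 cells allows up to 1.94%). Unthinned, 58.0% and 24.5% of corticotroph-like cells had Tnnt1 and 23.0% and 6.21% had Tnni3. Cells with 10 or more Tnnt1 UMIs numbered 107 of 1253 in the young library and 3 of 306 in the old one. The top cell held 55 of 4014 UMIs (1.37%, 1.03 to 1.78%) in the young and 16 of 226 (7.08%, 4.10 to 11.2%) in the old library, so no single cell set the level at either age. For Tnni3 the top cell held 20 of 836 UMIs (2.39%) and 5 of 35 (14.3%, 4.81 to 30.3%). Without the top cell of each library Tnnt1 was 6.82-fold lower (5.94 to 7.88) and Tnni3 9.83-fold lower (6.83 to 14.7). The top Tnnt1 cells had other corticotroph markers too, though not all of them. The young one had 123 Pomc, 6 Tbx19 and 1 Crhr1 UMIs and the old one 294 Pomc, 0 Tbx19 and 7 Crhr1 UMIs. Both had 0 Pax7 UMIs. Pomc made up 1.01% and 2.21% of their UMIs, under the class medians of 1.33% and 4.86%.

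**Figure D2:**
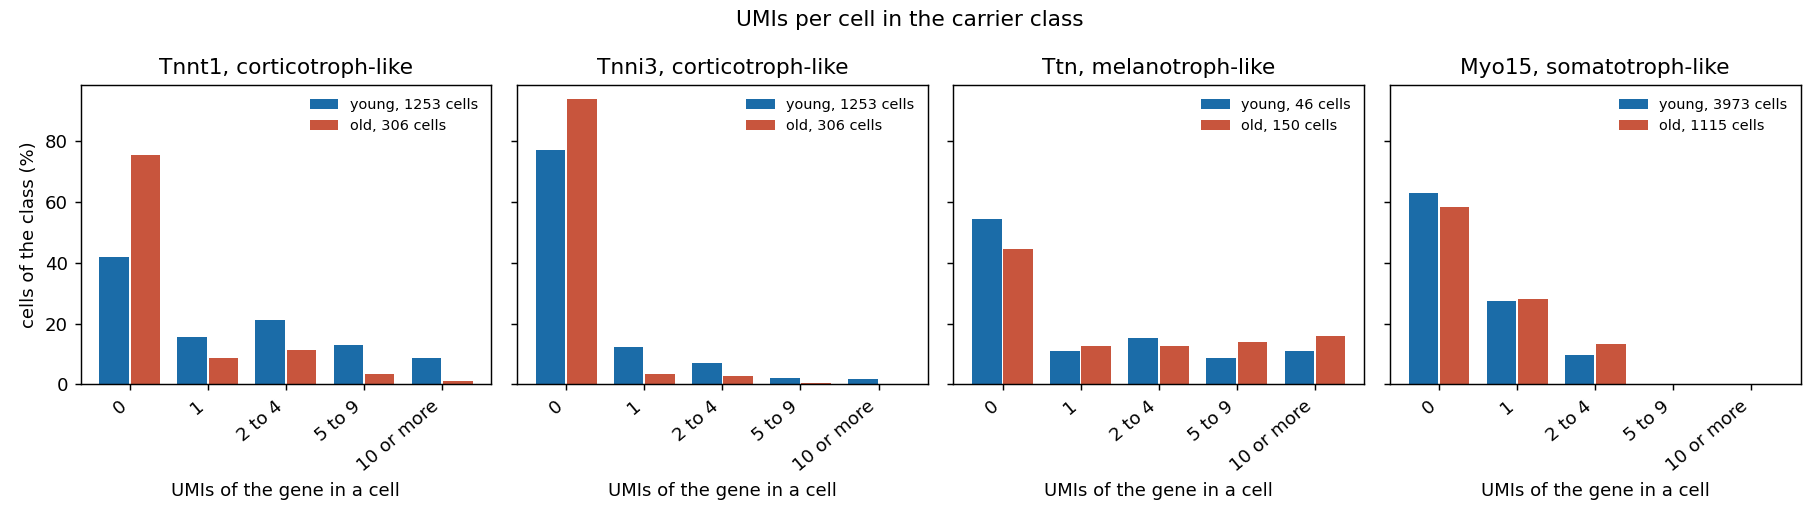
Share of cells (%) of the carrier class with 0, 1, 2 to 4, 5 to 9 or 10 or more UMIs of Tnnt1, Tnni3, Ttn and Myo15, young in blue and old in red, with no thinning. Cells without Tnnt1 made up 526 of 1253 in the young carrier and 231 of 306 in the old one, while for Ttn and Myo15 the share at 0 was smaller in the old carrier.

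The troponins were found together in more cells than the product of their shares gives (243 against 167 in the young and 15 against 4.66 in the old library). Among young corticotroph-like cells with Tnnt1, 33.4% (243 of 727) also had Tnni3, against 8.56% of those without Tnnt1. In the old library the shares were 20% (15 of 75) and 1.73%. Deep cells show more of every gene, and after thinning to 2000 UMIs the shares were 18.6% and 6.07% in the young and 14.3% and 1.44% in the old library, the latter resting on 4 cells with both. For Dmd the thinned shares were 2.92% of young cells with and 4.91% of those without Tnnt1, and 10.7% and 12.6% of old ones, while unthinned the young shares turned to 14.7% and 10.6% and the old ones were 41.3% and 41.1%.

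Corticotroph-like cells fell into 2 clusters. The larger, cluster 9 (1083 young and 261 old cells), had Tnnt1 at 491 and 79.3 CPM, 6.20-fold lower in the old library (5.39 to 7.16), and Tnni3 at 105 and 12.5 CPM. The smaller, cluster 16 (170 and 45 cells, median 2968 and 3920 UMIs), had Tnnt1 at 1003 and 102 CPM, 9.84-fold lower (6.07 to 17.0). Both clusters had the lower level in the old library. Cluster 16 was poor in the nuclear RNA Malat1, at a median of 0.0917% and 0.135% of UMIs, against 4.72% and 6.78% in cluster 9. A setting added after the data were seen kept corticotroph-like cells with at least 0.5% of UMIs from Malat1, which leaves out most of cluster 16. Over these cells Tnnt1 was 6.11-fold and Tnni3 8.46-fold lower.

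The direction was the same over barcodes that were not sorted into classes. Over all barcodes Tnnt1 was at 93.6 and 21.8 CPM, 4.29-fold lower in the old library (4.09 to 4.51), and Tnni3 at 19.6 and 3.58 CPM, 5.47-fold lower (4.85 to 6.17). Fewer corticotrophs in the suspension and less RNA per cell cannot be told apart in that sum. In barcodes of at most 100 UMIs, which hold RNA outside cells, Tnnt1 was at 182 and 25.2 CPM, 7.21-fold lower (6.27 to 8.30), and Tnni3 at 43.8 and 3.73 CPM. The free RNA of the libraries thus differed the same way as their cells. Free RNA was an estimated 11.7% and 9.20% of UMIs in young and old corticotroph-like cells by the profile of at most 100 UMIs, and 5.56% and 8.75% by that of 500 to 900 UMIs. With the latter subtracted Tnnt1 was 6.32-fold and Tnni3 8.46-fold lower.

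**Figure D3:**
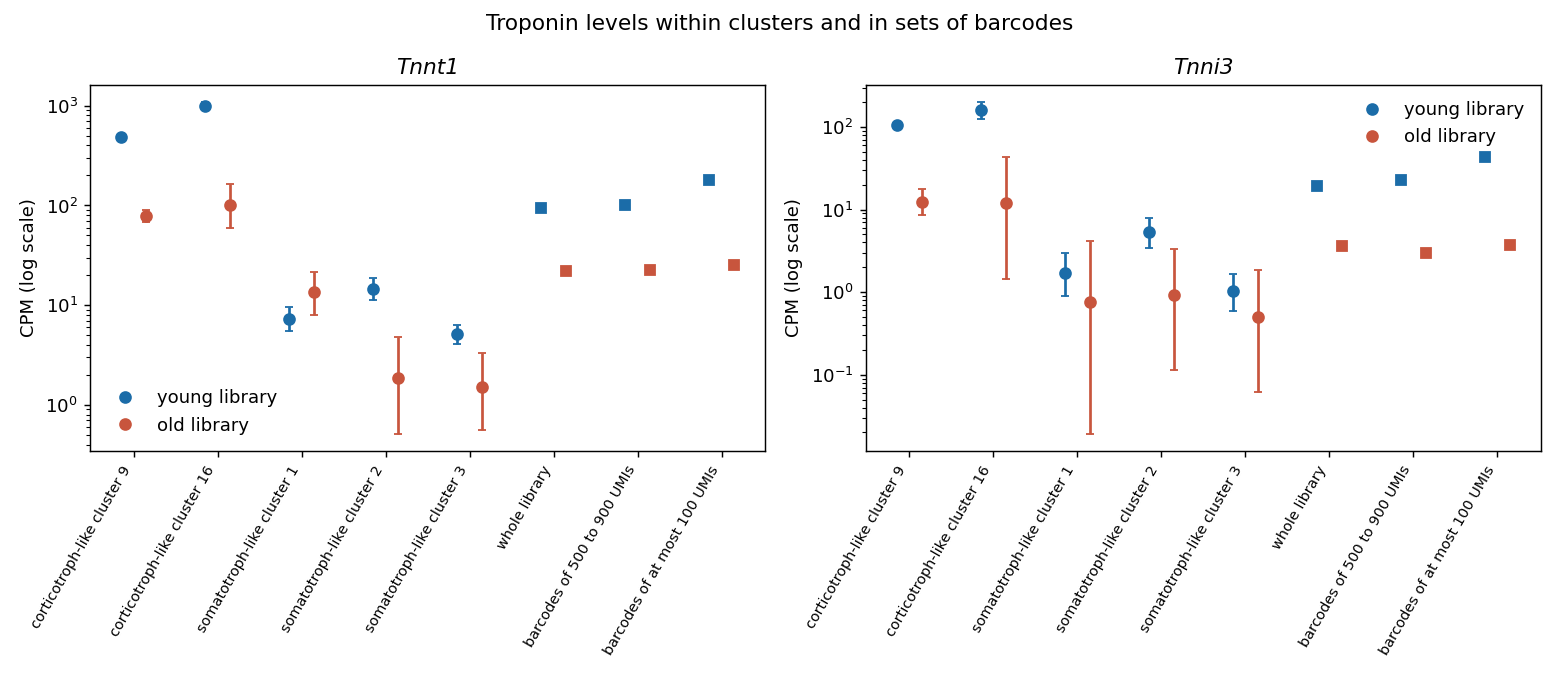
Level (CPM, log axis) of Tnnt1 and Tnni3 in corticotroph-like clusters 9 and 16, somatotroph-like clusters 1, 2 and 3 (circles, 95% Poisson intervals), the whole library and barcodes of few UMIs (squares), young in blue and old in red. Young lies above old in every set but Tnnt1 in somatotroph-like cluster 1, where 1 old cell held 15 of 18 UMIs.

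Tnnt1 was also lower outside corticotroph-like cells. Stem cell-like cells, which are not endocrine, had 239 young and 34 old UMIs (32.7 and 14.1 CPM, 2.33-fold lower, 1.62 to 3.44). Macrophage-like cells had 46 and 12 UMIs (2.34-fold lower, 1.22 to 4.86). Their level lay within the interval of T or NK cell-like cells in each library, while that of stem cell-like cells lay above it. Free RNA was not subtracted in stem cell-like or macrophage-like cells, so its part in their differences was not tested. In the other endocrine classes the differences rested on fewer UMIs. In lactotroph-like cells Tnnt1 had 26 young and 6 old UMIs, 2.90-fold lower (1.17 to 8.61). In somatotroph-like cells Tnni3 had 52 and 5 UMIs, 2.86-fold lower (1.15 to 9.19) but 1.58-fold lower, so not called, with at most 10% mitochondrial UMIs, and Tnnt1 196 and 28 UMIs, 1.93-fold lower (1.29 to 2.98), with 15 of the 28 in 1 old cell and 3.96-fold lower (2.26 to 7.58) without the top cells. After subtracting the free RNA profile of barcodes of at most 100 UMIs, 0.0470 of the 26 young lactotroph-like Tnnt1 UMIs and 0 of the 52 young somatotroph-like Tnni3 UMIs were left, while 3916 of 4014 young corticotroph-like Tnnt1 UMIs and 812 of 836 Tnni3 UMIs were left. Of the old UMIs 3.03 of 6 and 2.59 of 5 were left. With the profile of barcodes of 500 to 900 UMIs subtracted instead, lactotroph-like Tnnt1 was still lower in the old library, 2.35-fold on 10.4 and 2.91 UMIs, and somatotroph-like Tnni3 was 1.69-fold lower on 18.4 and 2.89 UMIs, so the result depends on the profile. In melanotroph-like cells, a class under 50 young cells, Tnnt1 had 25 and 19 UMIs, with 12 and 16 of them in the top cell. The top old cell carried 1036 Pomc, 2 Pax7 and 4 Tbx19 UMIs, markers of melanotrophs and of corticotrophs together.

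Ttn in melanotroph-like cells was at 599 CPM in the young library (130 UMIs) and 747 CPM in the old one (768 UMIs), a ratio of 1.25 (1.04 to 1.51), with no replicate check. A UMI of Ttn was found in 32.6% of young (19.5 to 48.0%) and 36.7% of old cells (29.0 to 44.9%) after thinning, and the intervals overlap. T or NK cell-like cells had 0 of 117 (up to 2.56%) and 3.87%. Where Ttn was present it was often plentiful, as 24 of 150 old melanotroph-like cells had 10 or more UMIs while 67 had none. The cell with the most Ttn held 26 of 130 UMIs in the young (20.0%, 13.5 to 27.9%) and 89 of 768 in the old library (11.6%, 9.41 to 14.1%). That old cell had 6550 UMIs in all, with 111 of Pomc, 2 of Pax7 and 4 of Pcsk2. The top 10% of cells held 61.5% and 59.8% of the UMIs, and without the top cell of each library the ratio was 1.34 (1.09 to 1.66).

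Gonadotroph-like cells came next for Ttn, at 98.6 and 521 CPM (59 and 215 UMIs), a ratio of 5.28 (3.94 to 7.17) in a class of 62 and 38 cells. This cluster was mixed. A split made after the values were seen shows that cells with at least 10 UMIs of the gonadotropin genes Lhb and Fshb (20 young and 16 old) had Ttn at 52.6 and 68.3 CPM. The 21 old cells with under 10 UMIs of these and of the thyrotropin gene Tshb held 201 of the 215 old UMIs, and 80 sat in the top cell, which had 0 UMIs of Lhb and Fshb. The high old level of the cluster was therefore in cells with few gonadotropin UMIs. Its top young cell held 14 of 59 Ttn UMIs, with 2080 Pomc UMIs and 0 of Lhb and Fshb, while the top old cell had 50 Pomc UMIs. Corticotroph-like cells were at 28.2 and 40.7 CPM (218 and 114 UMIs), a ratio of 1.44 (1.14 to 1.82), with the top cell holding 22 and 21 UMIs.

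Ttn in somatotroph-like cells was called higher in the old library, at 1.64 and 14.3 CPM (44 and 106 UMIs), a ratio of 8.75 (6.10 to 12.7). In each library 1 cell held at least 50% of it. The top cell held 22 of 44 UMIs in the young (50%) and 66 of 106 in the old library (62.3%, 52.3 to 71.5%), and these cells had 28.2% and 8.62% of their UMIs from Gh, against class medians of 33.7% and 21.8%. Without them 22 and 40 UMIs remained, a ratio of 6.61 (3.83 to 11.7). The share of cells with Ttn after thinning was 0.227% and 0.897%, beside 0 of 117 and 3.87% of T or NK cell-like cells. Subtracting free RNA of at most 100 UMIs left 39.5 of 44 young and 102 of 106 old UMIs. In those old T or NK cell-like cells 1 cell held 43 of 55 Ttn UMIs and 8 of 13 Dmd UMIs, beside 7 Pax7 and 131 Pomc UMIs and 0 of Cd3e and Trac. Lactotroph-like cells had 1 and 18 UMIs, 12 of them in 1 old cell.

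**Figure D4:**
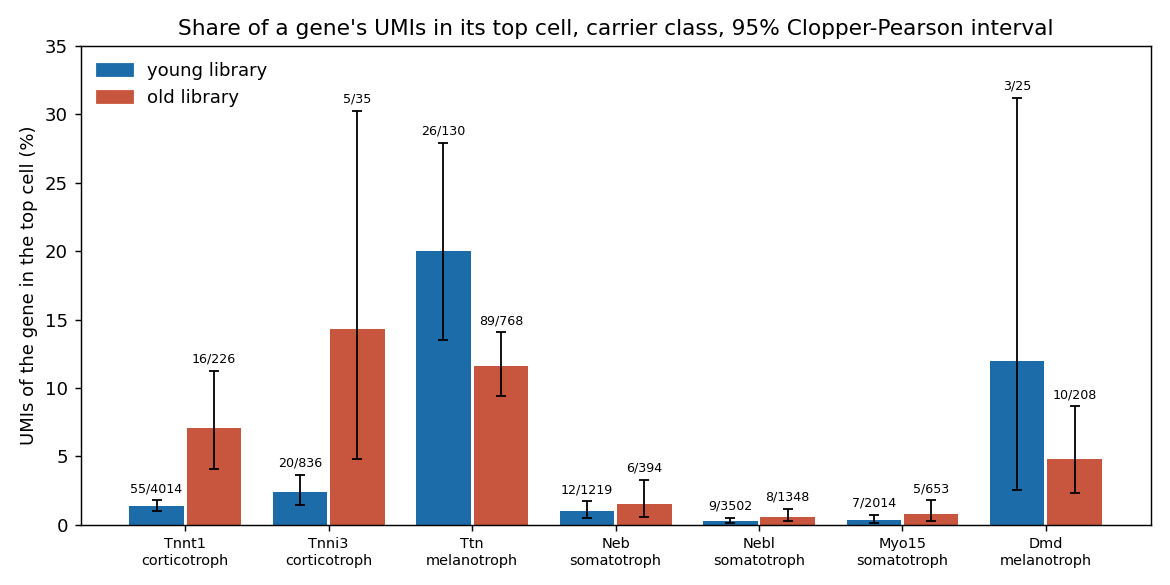
Share (%) of each gene's UMIs held by the cell with the most of them in its carrier class, with exact 95% Clopper-Pearson intervals; numbers on the bars give the UMIs of the top cell over all UMIs of the gene in the class. The shares are lowest for Nebl and Myo15 and highest for young Ttn, at 20.0%.

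Dmd was the most widely spread member. Melanotroph-like cells were at 115 CPM in the young (25 UMIs, 74.5 to 170 CPM) and 202 CPM in the old library (208 UMIs), a ratio of 1.76 (1.16 to 2.78). A UMI was found in 21.7% (10.9 to 36.4%) and 32.7% (25.2 to 40.8%) of thinned cells, shares whose intervals overlap. The top cell held 3 of 25 and 10 of 208 UMIs (12% and 4.81%), and the ratio without it was 1.76 (1.13 to 2.88). Gonadotroph-like cells had 58.5 and 96.9 CPM, lactotroph-like cells 33.1 and 50.04 CPM and somatotroph-like cells 32.8 and 37.9 CPM, where the ratio was 1.16 (1.01 to 1.32). Outside the endocrine classes, stem cell-like cells had 44.9 and 57.0 CPM and the 32 and 39 fibroblast-like cells 88.8 and 120 CPM, so Dmd RNA was no mark of endocrine cells.

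Dmd in corticotroph-like cells was called higher in the old library, at 25.8 and 74.6 CPM (199 and 209 UMIs), a ratio of 2.89 (2.37 to 3.53). This is the opposite direction to the troponins in the same cells. The share of thinned cells with Dmd was 4.15% (3.11 to 5.41%) and 12.4% (8.94 to 16.6%), against 0.855% and 1.94% of T or NK cell-like cells. The top cell held 4 of 199 and 8 of 209 UMIs (2.01% and 3.83%), and the ratio was 2.88 (2.35 to 3.52) in cluster 9 alone. Myo15 was also called higher there, at 3.63 and 11.1 CPM (28 and 31 UMIs, ratio 3.05, 1.77 to 5.28). Its thinned shares were 0.638% and 1.96%, beside 0 of 117 (up to 2.56%) and 2.58% of T or NK cell-like cells. Subtracting free RNA left 16.3 of 28 young and 27.4 of 31 old UMIs with the profile of at most 100 UMIs, and 21.7 and 27.3 with that of 500 to 900, and the part of other cells in this value was not tested.

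In corticotroph-like cells, then, 2 of the 7 members were called lower, beside 2.95% of the 12929 genes with at least 20 UMIs, and 2 were called higher, beside 3.94%. In somatotroph-like cells 1 of 7 was lower, beside 4.06% of 14731 genes, and 1 was higher, beside 5.18%. Of the 5 members with enough UMIs in lactotroph-like cells, 1 was lower, beside 2.53% of 11476 genes, and 0 were higher, beside 6.43%. The members were picked with these differences known, so nothing is read from these counts.

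**Figure D5:**
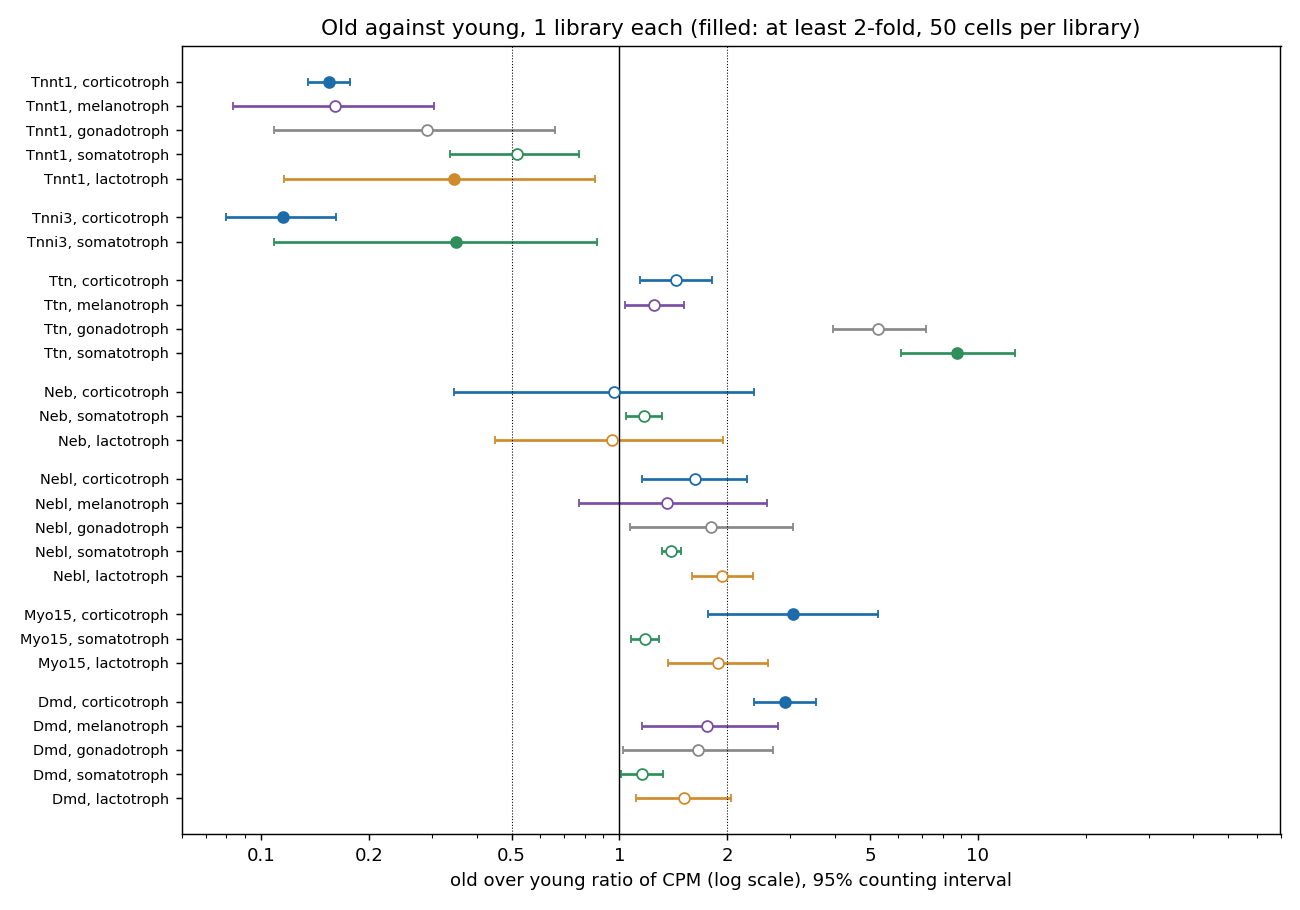
Old over young ratio of CPM (log axis) with exact 95% counting intervals for each gene and endocrine class with at least 20 UMIs, dotted lines at 0.5 and 2. Filled points are called; Tnnt1 and Tnni3 lie left of 1 in the classes shown, and Neb, Nebl and Myo15 in somatotroph-like cells lie between 1.17 and 1.40.

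Neb, Nebl and Myo15 had their highest endocrine level in somatotroph-like cells at both ages, where they differed by less than 2-fold between the libraries. Neb was at 45.3 CPM in the young (1219 UMIs) and 53.2 CPM in the old library (394 UMIs), a ratio of 1.17 (1.04 to 1.32). The next classes were lactotroph-like at 8.18 CPM in the young and melanotroph-like at 9.73 CPM in the old library. A UMI of Neb was found in 5.91% and 6.64% of thinned somatotroph-like cells, against 0.855% and 1.29% of T or NK cell-like cells, and unthinned in 20.4% and 20.9%. A single cell held at most 12 of 1219 young and 6 of 394 old UMIs (0.984% and 1.52%), and it took 231 young and 61 old cells to reach 50% of the UMIs, so nebulin RNA was spread over many cells.

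Nebl was at 130 CPM (3502 UMIs) and 182 CPM (1348 UMIs) in somatotroph-like cells, a ratio of 1.40 (1.31 to 1.49). The thinned share of cells was 17.2% (16.03 to 18.4%) and 25.6% (23.0 to 28.2%), also higher in the old library and under 2-fold. Thinning counts the UMIs of all genes, and Gh made up a median of 33.7% of UMIs in young and 21.8% in old somatotroph-like cells. Thinned young cells thus kept fewer UMIs of other genes. This holds for every thinned share in somatotroph-like cells, and its part in their differences was not tested. Lactotroph-like cells came close behind at 68.1 and 132 CPM, a ratio of 1.94 (1.59 to 2.36) just inside the 2-fold limit, with thinned shares of 7.98% and 22.3%. Their median share of prolactin (Prl) UMIs was 1.24% and 0.396%. That of growth hormone (Gh) was 7.51% and 6.08%, against 6.68% and 3.94% in T or NK cell-like cells. The lactotroph-like cells with the most Nebl had 8 and 10 Prl UMIs beside 3061 and 3831 of Gh. The part of growth hormone cells in the lactotroph-like levels was not tested. RNA of Nebl was not particular to endocrine cells, as fibroblast-like cells had 76.1 and 169 CPM and pituicyte-like cells 52.1 and 129 CPM. The counts are per gene, so forms of the RNA were not told apart. At most 9 of 3502 and 8 of 1348 UMIs (0.257% and 0.593%) came from 1 cell.

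Myo15 was at 74.8 CPM (2014 UMIs) and 88.1 CPM (653 UMIs) in somatotroph-like cells, a ratio of 1.18 (1.08 to 1.29), and at 27.2 and 51.2 CPM in lactotroph-like cells, a ratio of 1.88 (1.37 to 2.60). It was found in 11.4% and 16.2% of thinned somatotroph-like cells and in 2.24% and 10.3% of lactotroph-like cells, against 0 of 117 and 2.58% of T or NK cell-like cells. The top cell held 7 of 2014 and 5 of 653 UMIs (0.348% and 0.766%), the lowest concentration beside Nebl. Among lactotroph-like cells, those with the most Myo15 had 9 and 8 Prl UMIs beside 5329 and 3136 of Gh. The largest somatotroph-like cluster was cluster 3 in the young library (1577 of 3973 cells, against 387 of 1115 old ones) and cluster 2 in the old one (472, against 1271 young), which differ in median depth (18262 and 15642 UMIs in cluster 3, 4298 and 4172 in cluster 2). Within clusters 1, 2 and 3 the ratio of Myo15 was 1.52, 0.886 and 1.05, that of Neb 1.04, 0.963 and 1.26 and that of Nebl 1.43, 1.17 and 1.44, so only Nebl was on the higher side in all of them.

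Each member was also compared with other genes by its profile over cell classes. Likeness is Pearson's r of log2(CPM + 5) over 20 profiles, 10 classes in each of the 2 libraries, among 7345 genes with at least 50 CPM in a profile. The profiles share libraries and depth, so r is a description. Among the members, Neb, Nebl and Myo15 were at 0.69 to 0.80 with each other. Ttn and Dmd were at 0.25, but their carrier, melanotroph-like cells, is not among these profiles. Tnnt1 and Tnni3 were most like each other (0.93), then Crhr1, the receptor for corticotropin-releasing hormone (0.83 and 0.85), and Gpc5, a glypican (0.83 and 0.81). Those corticotroph-like genes differed far less between the libraries, Crhr1 at 139 and 114 CPM (1.22-fold lower) and Gpc5 at 106 and 75.6 CPM (1.40-fold lower). Neb was most like Ghrhr, the receptor for growth hormone-releasing hormone (0.93), which was at 223 and 227 CPM in somatotroph-like cells, then Dnah9 (0.86) and Erc2 (0.83). Myo15 was most like Erc2 (0.92), Htatsf1 (0.92) and Nbas (0.89), Nebl most like Greb1 (0.90), Kcnh8 (0.89) and Stx16 (0.89), and Dmd most like Mtmr7 (0.94), Msi2 (0.93) and Zfhx4 (0.93). These profiles leave out melanotroph-like cells for their number, and the nearest to Ttn in them were Egr4 (0.73), Pomc (0.72) and Dnajb6 (0.71). Classes of at least 30 cells, a limit chosen after seeing the data, give 28 profiles that include melanotroph-like cells. Over those 28 Ttn and Dmd were at 0.57, and Neb, Nebl and Myo15 at 0.63 to 0.77 with each other. Most of the nearest genes changed with the profiles. The 3 nearest became Pou1f1, Frmd5 and Rem2 for Myo15, Efna5, Erc2 and Ctxn3 for Nebl, and Casc4, Zfhx4 and Atp9a for Dmd. Crhr1 was no longer among the 3 nearest of either troponin, while Neb stayed nearest to Ghrhr and Dnah9.

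Other genes of the contractile apparatus were taken from 8 lists. In corticotroph-like cells the thin filament genes went both ways. Of 20 other thin filament genes 8 had at least 20 UMIs, 2 called lower (beside 2.95% of all genes) and 1 higher (beside 3.94%). The same shares stand beside the corticotroph-like counts of the other lists, and nothing is read from counts this small. Tpm2, a muscle tropomyosin, was at 49.3 and 12.1 CPM, 4.07-fold lower (2.86 to 5.96), and Tpm4 at 104 and 51.7 CPM, 2.01-fold lower (1.68 to 2.41). Tpm3, at 266 and 244 CPM, and Tmod2, which caps actin filaments, at 88.1 and 88.1 CPM, were not called, and Tmod1 (22 and 16 UMIs) was the one called higher, at 2.00-fold (0.984 to 3.99). The median log2 ratio of the list was -0.02, beside 0.08 over all 12929 genes. Tnnc1, troponin C of slow and cardiac muscle, was at 7.12 and 6.78 CPM, a value looked up because it completes the complex.

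Thick filament genes were close to absent from corticotroph-like cells, where 3 of 18 reached 20 UMIs and 9 had none. The list summed to 12.2 and 9.28 CPM, with Myl1 at 35 and 5 UMIs (called lower, 2.54-fold, 0.991 to 8.31) and Myh7 at 17 and 12 UMIs. Of 24 Z disc and M band genes 5 were measured and 1 called lower, Capn3, on 22 and 3 UMIs (2.66-fold, 0.7998 to 13.9), while Pdlim5 was at 80.9 and 90.6 CPM, Lasp1 at 62.8 and 39.96 CPM and Myom1 at 9.58 and 6.06 CPM. Of 15 muscle calcium handling genes 8 were measured and 1 called higher, Trdn (triadin), at 29.5 and 64.2 CPM (ratio 2.17, 1.78 to 2.66), while the calcium pumps Atp2a2, at 103 and 133 CPM, and Atp2a1, at 18.5 and 9.63 CPM, and Asph, at 140 and 118 CPM, were not called. Median log2 ratios of these lists were -0.73, -0.63 and -0.07.

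Of the 14 genes of the complex that dystrophin belongs to, 9 were measured in corticotroph-like cells and 0 called in either direction (median log2 ratio 0.18). Dag1, the dystroglycan that binds dystrophin, was at 86.4 and 69.6 CPM, Sgce at 48.2 and 45.7 CPM, Sntb2 at 14.4 and 25.7 CPM and Dtnb at 25.3 and 34.2 CPM. Of 10 myogenic factors 4 were measured, with Mef2a at 125 and 142 CPM and Mef2d at 71.0 and 52.1 CPM not called and Mef2c called higher on 16 and 18 UMIs (ratio 3.099, 1.49 to 6.50; list median -0.05). Of 16 non-muscle and smooth muscle actomyosin genes 10 were measured and 0 called (median -0.32), Actb at 3019 and 2273 CPM, Actg1 at 2121 and 1552 CPM, Mylk at 4.27 and 7.85 CPM and Myh14 at 17.2 and 11.4 CPM. Of 16 unconventional myosins and Myo15 partners 12 were measured and 0 called (median -0.01), with Myo5a at 80.4 and 113 CPM, Gnai3 at 77.6 and 71.0 CPM and Myo5b on 40 and 8 UMIs.

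In somatotroph-like cells, the carriers of Myo15, 15 of those 16 myosins and partners were measured. Of these 1 was called higher, beside 5.18% of 14731 genes, and 1 lower, beside 4.06%. Nothing is read from counts this small. Whrn, the whirlin that Myo15 carries in hair cells, was at 106 and 56.7 CPM, 1.86-fold lower (1.68 to 2.07), and Gpsm2, another partner, was the one called lower, at 4.20 and 1.89 CPM (113 and 14 UMIs, 2.22-fold, 1.27 to 4.20). Eps8 and Gnai3, the rest of the tip complex, were at 18.7 and 25.4 CPM and 68.4 and 67.7 CPM. Of the 14 dystrophin complex genes 10 were measured, 2 called higher (beside 5.18% of all genes) and 0 lower (beside 4.06%). Sntb1 was 1 of the 2, at 1.82 and 9.71 CPM (ratio 5.33, 3.66 to 7.83). Utrn, the relative of dystrophin, was at 95.1 and 148 CPM (ratio 1.56, 1.45 to 1.67). Values of this paragraph were picked from the lists after they were seen.

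Muscle cells were looked for in the same classes by their own markers. In corticotroph-like cells 6 of 8 skeletal muscle markers in the young and 5 of 8 in the old library had a UMI, with summed levels of 5.05 and 4.99 CPM, and the myosins Myh1 and Myh4 were at 0 in both. Cardiac markers (6 of 6 and 2 of 6 with a UMI) summed to 5.31 and 3.57 CPM and pericyte or smooth muscle markers (5 of 7 in each) to 3.50 and 3.21 CPM. In melanotroph-like cells the 3 lists summed to 4.60 and 5.84, 0 and 3.89, and 18.4 and 16.5 CPM, with Myh1, Myh4 and Myh6 at 0 in both libraries, and in somatotroph-like cells to 3.34 and 4.18, 11.1 and 8.50, and 2.56 and 3.78 CPM. No list summed to more than 18.4 CPM in a carrier class of either library.

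Of the genes beside the troponins on the chromosome, those with at least 20 UMIs were not called. In corticotroph-like cells Ppp1r12c, next to Tnnt1, was at 42.2 and 41.4 CPM and Syt5, past Tnni3, at 32.1 and 40.7 CPM. Dnaaf3, which overlaps Tnni3 on the same strand, had 16 and 2 UMIs, too few to be called, at a ratio of 0.344 (0.0384 to 1.46). How reads of the overlap were split between Dnaaf3 and Tnni3 is uncertain. The antisense genes overlapping Ttn, Neb and Nebl had at most 3 UMIs in all endocrine classes of a library.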

How the data were processed

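Raw UMI counts per gene and barcode were deposited by the authors for 1 young and 1 old library, as unfiltered matrices. Per the submitters' processing notes reads were processed with Cell Ranger 6.0.2 against GRCm39, while the matrix header names version 4. Whether intronic reads were counted is not given in the sources used here. Libraries held 154510099 and 138427393 UMIs.

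Barcodes needed 2000 UMIs, 500 genes and at most 15% mitochondrial UMIs. The automatic threshold of Scrublet called 0% and 0.0307% doublets, so the highest scores were removed at 0.8% per 1000 barcodes (679 and 766, or 7.37% and 7.83%). Clustering used scanpy 1.11.5, 2970 variable genes (30 contractile genes left out), 40 components, 15 neighbours and Leiden resolution 1. Clusters were named from marker lists, and a cluster correlating at 0.95 or more with low-UMI barcodes was set aside as free RNA. CPM totals leave out 7 hormone and 13 mitochondrial genes. Poisson and Clopper-Pearson intervals (scipy 1.17.1, numpy 2.4.6, pandas 2.3.3, Python 3.11.15) cover counting error only. Shares were thinned to 2000 UMIs a cell, counted over all genes with the hormone genes included. With 1 library per age no test was made.

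The members, lists and tests were chosen with earlier results of these data known. Named besides the members were the 3 genes most like each and, of every contractile list, the 2 with the highest level and the 2 with the largest fold in corticotroph-like cells; other listed genes were picked after their values were seen. The code for the ratio and its interval was tested on simulated Poisson counts with known folds and known totals. Other steps were not tested this way. Alternatives changed the filters, doublet removal, clustering, totals, free RNA and single cells.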

Additional observations from a re-analysis of the deposited data

How the results depend on the processing

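No paired analysis was possible because each age has 1 library. Over 14 alternatives each, Tnnt1 in corticotroph-like cells was 6.11-fold to 6.93-fold lower and Tnni3 7.90-fold to 9.83-fold lower. Over 13 each, the melanotroph-like ratio of Ttn was 1.08 to 1.43 and that of Dmd 1.69 to 1.94. With all UMIs as the total, which moves every somatotroph-like gene by 0.26 on the log2 scale, the ratios became 1.41 for Neb, 1.68 for Nebl and 1.41 for Myo15. Nebl was at 1.51 with at most 10% mitochondrial UMIs and Myo15 at 1.07 with a minimum of 4000 UMIs. With free RNA of at most 100 UMIs subtracted, the lactotroph-like ratio of Tnnt1 reversed to 97.5, on 0.0470 young and 3.03 old UMIs, and Tnni3 in somatotroph-like cells had no ratio. Over 13 alternatives the latter was otherwise 1.58-fold to 4.16-fold lower. Myo15 in corticotroph-like cells was at 1.53, no longer called, without doublet removal, and Ttn in somatotroph-like cells ranged from 4.99 to 19.2. The causes were not tested. Without thinning, young and old shares were 58.0% and 24.5% for Tnnt1, 23.0% and 6.21% for Tnni3, 20.4% and 20.9% for Neb, 53.0% and 61.6% for Nebl and 37.2% and 41.6% for Myo15, and old shares 55.3% for Ttn and 66% for Dmd. Thinned, 18.6% of young Tnnt1 cells had Tnni3. Genes at least 2-fold higher and lower numbered 510 and 381 in corticotroph-like cells, 2801 and 2616 with at least 1 UMI and 117 and 115 with at least 100. In somatotroph-like cells they numbered 763 and 598, then 2855 and 3330, then 255 and 219. Clustering each library alone gave no old corticotroph-like class, and at most 10% mitochondrial UMIs no melanotroph-like class. With classes of at least 30 cells, chosen after seeing the data as was the Malat1 setting, Ttn was most like Ralyl (0.91) and Tnnt1 like Tnni3 (0.77). The low UMI numbers of the old troponins and of young melanotroph-like cells limit their precision.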
